A study of Mus musculus with 21 samples.

Results

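The peak list named HDAC2 came from chromatin immunoprecipitation followed by sequencing (ChIP-seq) of mouse ganglionic eminences and held 11288 of the 91480 peaks in the 6 ChIP lists of the series. Every peak of the list was used, with no selection on its values. The list is attached to a sample titled HDAC1 ChIP, whose antibody is labelled Bethyl A300-713A, so the name of the list and the title of its sample conflict. Lists named HDAC1 and CHD4 are likewise attached to samples titled CHD4 and HDAC2. All 6 lists are called here by the name they carry, and which protein was precipitated could not be settled from the files. The prefix JDP08 is shared by the HDAC2-named and HDAC1-named lists, and the samples to which the HDAC2-named and CHD4-named lists are attached are both paired with input 1 in the labels.

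ChIP used tissue labelled basal ganglia from CD1 embryos at E13.5 (E, embryonic day), with 1 library per target and 3 inputs. The labels do not say how many embryos gave each library, and the tissue was not sorted, so a peak can come from any of its cell types. Accessibility was measured at E12.5 in CD1 embryos that were wild type (WT) or Dlx1/2 knockout (KO), 3 per genotype and fraction. The FTpos fraction stands for the ventricular zone and the FTneg fraction for the subventricular and mantle zones. Neither the ChIP lists nor the accessibility lists have a replicate, so the values below describe these lists and no test was made between them. Intervals are 95% Wilson intervals, which cover counting error over peaks, genes or regions and not the variation between embryos. Read depth is unknown.

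HDAC1 and HDAC2 are closely related class I deacetylases that remove acetyl groups from histone tails. They are the catalytic deacetylases of NuRD, which also holds a CHD remodeller and MBD, MTA, GATAD2 and RBBP subunits, and they work in other complexes such as those of SIN3 and of REST and its corepressor RCOR1. Deacetylases are known from active CpG-rich promoters and enhancers as well as from silenced genes. In the ganglionic eminences, progenitors of the ventricular zone give rise to GABAergic neurons, a lineage that needs the homeodomain factors DLX1 and DLX2.

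The sequences below show what the gene starts under the strongest HDAC2-named peaks look like, beside starts without a peak. Each is the RefSeq window of 250 bases before to 50 after a gene start on GRCm38.p6, the assembly of mm10, written 5′ to 3′ on the strand of the gene, with every CpG dinucleotide in capitals. The first 5 are the windows wholly inside a peak with the highest fold enrichment, outside chromosomes 8 and 18. They belong to Atp5e, a subunit gene of mitochondrial ATP synthase (chr2:174464052-174464351, minus strand), the death effector domain gene Dedd (chr1:171328651-171328950, plus strand), and Pcbp2, which encodes an RNA-binding protein (chr15:102470289-102470588, plus strand). The others of the 5 are Synj1, which encodes the synaptic phosphatase synaptojanin (chr16:91011259-91011558, minus strand), and Sox11, a transcription factor gene of young neurons (chr12:27342669-27342968, minus strand). For contrast, Hoxa13 (chr6:52260831-52261130, minus strand) is the CpG-richest Hox window without a peak and Aif1 (chr17:35176003-35176302, minus strand) the CpG-poorest window of the microglial genes.
Atp5e: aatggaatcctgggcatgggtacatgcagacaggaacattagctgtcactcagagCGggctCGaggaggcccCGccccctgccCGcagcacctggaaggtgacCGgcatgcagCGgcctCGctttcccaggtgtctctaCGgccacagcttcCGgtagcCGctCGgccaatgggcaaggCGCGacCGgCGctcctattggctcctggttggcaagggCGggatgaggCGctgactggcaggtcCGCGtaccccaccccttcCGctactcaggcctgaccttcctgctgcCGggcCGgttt
Dedd: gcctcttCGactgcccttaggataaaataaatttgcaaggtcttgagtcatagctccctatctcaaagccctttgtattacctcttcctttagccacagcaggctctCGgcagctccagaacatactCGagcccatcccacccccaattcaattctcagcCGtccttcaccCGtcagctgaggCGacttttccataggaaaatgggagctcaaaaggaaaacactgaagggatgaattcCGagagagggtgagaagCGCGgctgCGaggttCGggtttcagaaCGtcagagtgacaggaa
Pcbp2: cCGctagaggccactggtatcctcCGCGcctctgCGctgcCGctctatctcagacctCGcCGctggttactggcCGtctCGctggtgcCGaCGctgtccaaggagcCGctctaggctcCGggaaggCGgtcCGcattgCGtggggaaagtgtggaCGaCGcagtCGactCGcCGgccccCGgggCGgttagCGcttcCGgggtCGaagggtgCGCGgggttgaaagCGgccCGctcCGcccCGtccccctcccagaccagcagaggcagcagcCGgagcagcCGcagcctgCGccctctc
Synj1: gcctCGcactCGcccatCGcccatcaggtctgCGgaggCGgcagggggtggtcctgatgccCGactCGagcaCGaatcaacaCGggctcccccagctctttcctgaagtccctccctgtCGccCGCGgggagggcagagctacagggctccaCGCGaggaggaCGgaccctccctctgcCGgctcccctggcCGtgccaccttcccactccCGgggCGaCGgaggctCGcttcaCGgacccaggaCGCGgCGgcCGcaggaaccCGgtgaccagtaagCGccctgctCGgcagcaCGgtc
Sox11: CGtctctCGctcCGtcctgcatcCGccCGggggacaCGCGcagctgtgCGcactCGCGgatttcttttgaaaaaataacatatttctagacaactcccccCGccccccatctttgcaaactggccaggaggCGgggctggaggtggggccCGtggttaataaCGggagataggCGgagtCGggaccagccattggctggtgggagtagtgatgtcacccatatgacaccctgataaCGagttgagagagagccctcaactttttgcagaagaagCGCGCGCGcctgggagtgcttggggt
Hoxa13: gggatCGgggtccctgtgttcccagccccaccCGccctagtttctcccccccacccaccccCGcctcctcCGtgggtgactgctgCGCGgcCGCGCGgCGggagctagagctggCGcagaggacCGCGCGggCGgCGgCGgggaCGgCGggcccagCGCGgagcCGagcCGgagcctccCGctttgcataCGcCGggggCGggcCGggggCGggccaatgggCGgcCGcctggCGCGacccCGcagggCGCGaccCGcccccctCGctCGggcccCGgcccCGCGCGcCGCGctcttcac
Aif1: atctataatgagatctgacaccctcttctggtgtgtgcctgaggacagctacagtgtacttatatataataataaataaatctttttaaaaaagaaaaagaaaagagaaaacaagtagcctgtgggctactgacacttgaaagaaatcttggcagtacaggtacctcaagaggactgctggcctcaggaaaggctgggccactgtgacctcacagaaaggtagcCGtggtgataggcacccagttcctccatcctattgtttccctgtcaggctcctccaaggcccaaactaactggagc

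The windows under peaks held 22 CpG at Atp5e, 12 at Dedd, 35 at Pcbp2, 30 at Synj1 and 21 at Sox11. Hoxa13 held 45 and Aif1 held 1, so a CpG-rich window could also be without a peak. Over 20418 such windows of 16783 genes the median was 14 CpG, and over the 1530 windows with a peak summit inside it was 26 (quartiles 19 and 33). The 16195 windows that no peak touched had a median of 9. The share of windows touched by a peak was 0.514% with 0 to 4 CpG (28 of 5449, 0.356 to 0.742), 4.98% with 5 to 9 and 18.9% with 10 to 14. It was 34.6% with 20 to 24 CpG, 43.5% with 30 to 34 and 48.8% with 40 to 44 (267 of 547, 44.6 to 53.0). Beyond that the share did not climb further, with 43.4% at 45 to 49 and 47.9% at 50 to 54, and these last intervals overlapped.

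**Figure D1:**
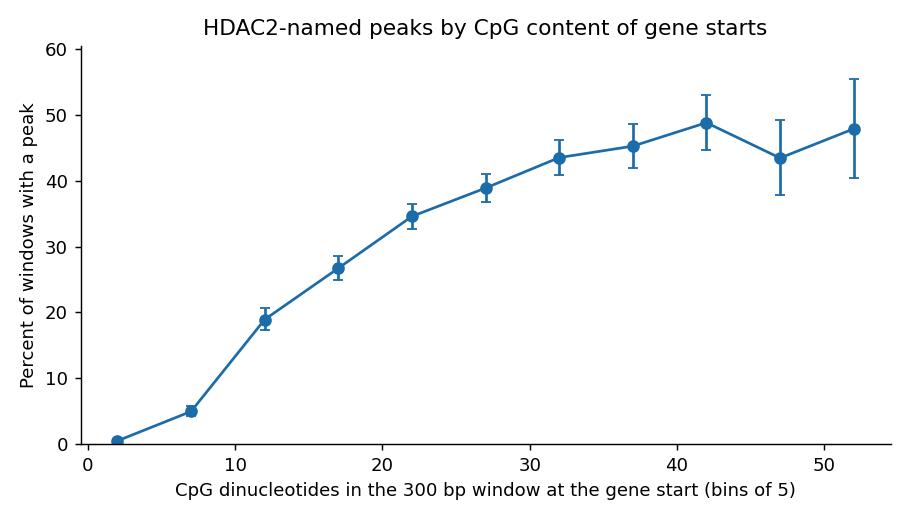
The plot gives the percent of 300 bp gene start windows touched by an HDAC2-named peak (y axis) against the number of CpG dinucleotides in the window in bins of 5 (x axis), with 95% Wilson intervals as bars. The share goes from 0.514% in the CpG-poorest bin to 48.8% at 40 to 44 CpG and stays between 43.4% and 48.8% in the bins from 30 CpG on.

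Short motifs were counted in the same windows on both strands. The GC box (GGGCGG) was in 72.3% of windows with a summit inside and 47.7% of all windows, and the ETS core (CCGGAA) in 33.7% and 19.2%. Both of these motifs contain a CpG and can overlap each other. The homeodomain core (TAATTA) was in 1.44% of windows with a summit and 4.45% of all, the TATA motif (TATAAA) in 4.25% and 12.4%, and the SOX motif (ACAAAG) in 11.8% and 16.7%. The CCAAT box (CCAAT) was in 32.9% and 38.4%, the E-box (CANNTG) in 61.2% and 68.7%, and the CRE (TGACGTCA) in 2.55% and 2.31%. Median GC content was 65.3% in windows with a summit inside and 57% in all windows. The part of base composition in these motif shares was not tested. A match describes the letters of the window and not binding.

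By strength, most HDAC2-named peaks lay close together, with a short tail of strong ones. Strength is the fold enrichment over input at the summit, as the authors' caller gave it. It ran from 2.69 to 34.5 with a median of 5.22 and quartiles of 4.52 and 5.96, and 106 peaks (0.939%) reached 10. The lowest −log10 p was 5.02, and −log10 q had a minimum of 2.49 and a median of 7.46. Peaks were 280 to 5578 bp wide with a median of 430 bp and covered 5957 kb in all. Fold enrichment took 747 distinct values over the 11288 peaks, the commonest (5.32) being shared by 412, so ranks among weak peaks hold many ties.

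The HDAC2-named list was mainly a list of gene starts. A gene start means a summit within 1 kb of a start that RefSeq lists for a curated protein-coding gene, or within 1 kb of either end for the 4170 of 20953 genes whose start was not in the table used. Of the 11288 peaks, 6672 (59.1%, 58.2 to 60.0) lay at a gene start, 2630 (23.3%) elsewhere within a gene and 1986 (17.6%) between genes. Exons and introns could not be told apart. The peaks between genes lay at a median of 65498 bp from the nearest gene, and 806 of them were more than 100 kb away. The share at gene starts was 59.2% in the HDAC1-named list (58.5 to 59.9), 46.0% in MBD3, 39.4% in the CHD4-named list, 36.4% in RBBP4 and 18.4% in RBBP7. The value for the HDAC1-named list fell inside the interval of the HDAC2-named one, and those of the other 4 fell below it. With either end of every gene in place of listed starts, 51.8% of HDAC2-named peaks qualified.

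Summits sat mostly just inside the transcribed side of the start. Of the 5532 summits within 1 kb of a start with known strand, 3596 (65.0%, 63.7 to 66.2) were downstream of it and 1936 upstream. The median position was 122 bp downstream, with quartiles at 127 bp upstream and 312 bp downstream. The fullest 100 bp bin, from 100 to 200 bp downstream, held 876 summits, against 371 in the bin from 100 to 200 bp upstream.

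**Figure D2:**
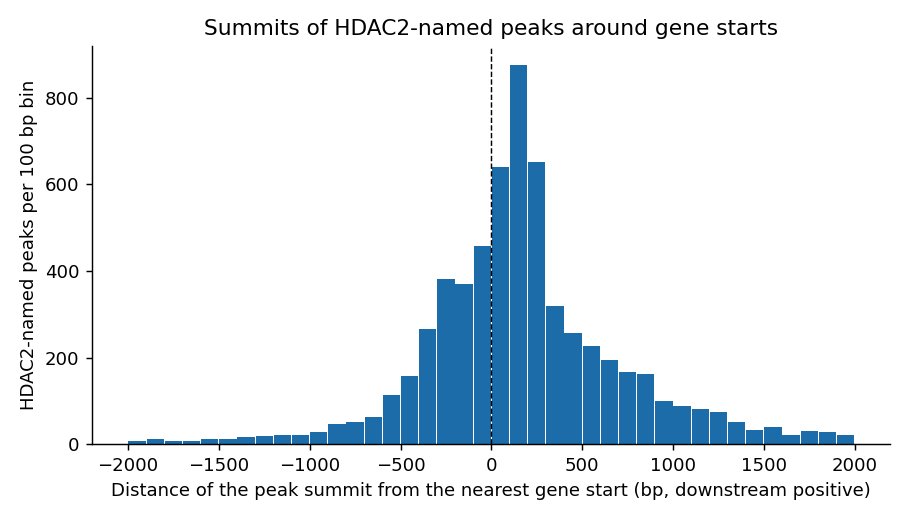
Bars count HDAC2-named peak summits per 100 bp bin (y axis) by distance from the nearest listed gene start in bp, downstream positive (x axis), for genes with known strand. The highest bar, 876 summits, stands at 100 to 200 bp downstream, and the upstream side has a lower shoulder with 382 summits at 200 to 300 bp upstream.

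Place varied little with strength. When peaks were split into 10 groups of nearly equal size by fold enrichment, gene starts made up 64.9% of the weakest group (62.1 to 67.7), between 56.2% and 61.3% of the next 8 and 59.5% of the strongest (56.6 to 62.3). Median fold enrichment was 5.22 at gene starts, 5.06 within genes and 5.22 between genes. The 8 peaks of highest fold enrichment nevertheless all lay away from gene starts. Overlap with the other lists was higher in the strongest group than in the weakest, but it did not rise steadily. An HDAC1-named peak was at 84.1% of the weakest group (81.8 to 86.1) and 97.3% of the strongest (96.2 to 98.1), an MBD3 peak at 50.5% and 75.6%, an RBBP7 peak at 27.6% and 52.4%, and a CHD4-named peak at 19.8% and 41.8%. The share in all 5 other lists was 9.48% in the weakest group and 31.3% in the strongest. Between these ends there were lower values, such as 78.0% for the HDAC1-named list in group 3. Median width was 374 bp in the weakest group and 716 bp in the strongest. A wider peak meets an overlap rule of 1 bp more easily, and the part of width was not tested.

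**Figure D3:**
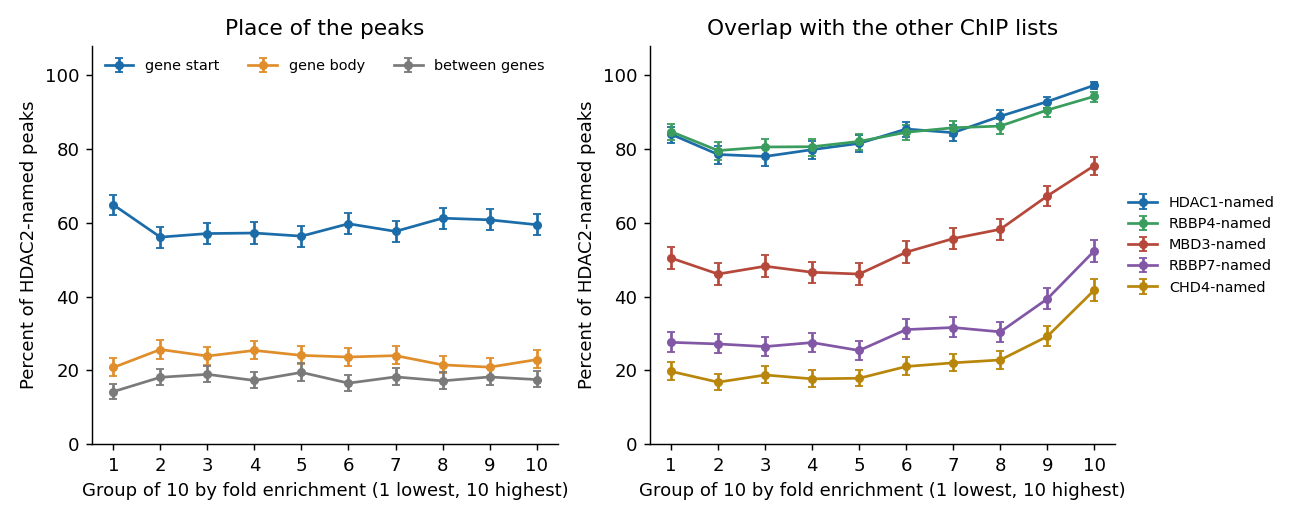
The left panel shows the percent of HDAC2-named peaks at gene starts, in gene bodies and between genes, and the right panel the percent overlapping each other ChIP list, by group of fold enrichment from 1, the weakest, to 10 (x axis), with 95% Wilson intervals. The lines of place run level, near 60% for gene starts, while every line of overlap ends higher in the strongest group than in the weakest, for example 75.6% against 50.5% for MBD3.

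Few HDAC2-named peaks stood alone. An overlap of at least 1 bp with a peak of another list was found for 11045 (97.8%, 97.6 to 98.1), and 243 had none. The HDAC1-named list was at 9609 of them (85.1%) and RBBP4, the longest list, at 9588 (84.9%). MBD3 was at 6171 (54.7%), RBBP7 at 3605 (31.9%) and the CHD4-named list at 2574 (22.8%). Seen from the other side, the HDAC2-named list overlapped 50.2% of MBD3 peaks, 46.2% of HDAC1-named, 46.0% of CHD4-named, 29.2% of RBBP4 and 23.8% of RBBP7 peaks. Over shared peaks the fold enrichments of the 2 lists were weakly related, with Spearman's rho across peaks from 0.0970 for RBBP7 (3605 peaks) to 0.240 for the HDAC1-named list (9609 peaks). These rank correlations describe peaks that come from the same kind of tissue and, in part, the same input, and are not independent.

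The commonest companions were the HDAC1-named list and RBBP4 without any other (2308 peaks, 20.4%), of which 75.7% lay at gene starts. Next came these 2 lists with MBD3 (1949 peaks, 17.3%, 73.4% at gene starts) and all 5 other lists together (1419 peaks, 12.6%, 37.5% at gene starts). The 1679 peaks without an HDAC1-named partner lay at gene starts less often, 36.0% against 63.1% of those with one, and 82.0% of them had an RBBP4 peak. Their median fold enrichment was 4.79, against 5.24. That difference between peaks of 1 library was not tested.

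The place of a peak varied with the number of other lists found there. Gene starts made up 28.0% of the 243 peaks in no other list (22.7 to 33.9), 54.7% of those in 1, 68.4% in 2, 65.6% in 3, 59.0% in 4 and 37.5% of the 1419 in all 5 (35.0 to 40.0). Peaks between genes were most frequent at both ends of this range, with 34.2% in no other list and 33.9% in all 5, and least frequent with 2 other lists (11.7%). Width and strength moved with the number of lists. Median width was 316 bp in no other list and 615 bp in all 5, and median fold enrichment 4.76 and 5.75. When every list was limited to peaks with −log10 q of 10 or more, gene starts were 71.7% with 2 other lists and 22.9% with all 5, so the decline from 2 lists to 5 was there too. With the 5000 peaks of lowest q from each list, they were 56.4% in no other list (417 of 740), 71.9% in 1, 67.9% in 2 and 29.8% in all 5, so the low share at 0 lists depended on the threshold and the highest share moved to 1 list. The share of peaks in all 5 other lists depended on the rules: it was 23.2% without the CHD4-named list, the shortest one, and 5.30% with those 5000 peaks per list.

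**Figure D4:**
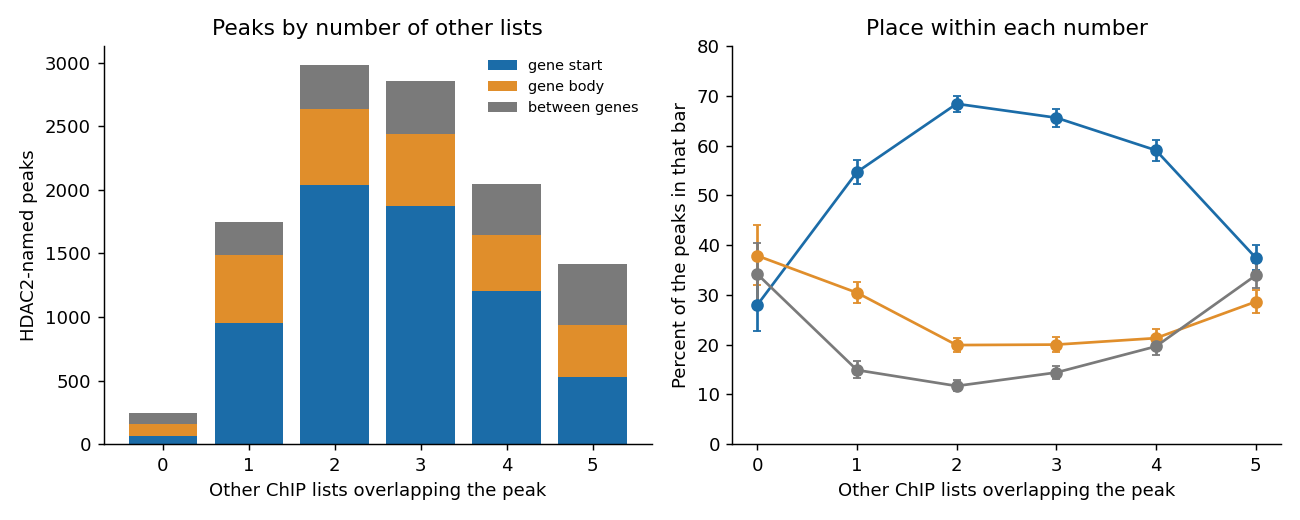
The left panel counts HDAC2-named peaks by the number of other ChIP lists that overlap them (x axis), stacked by place, and the right panel gives the percent of each bar in each place with 95% Wilson intervals. The bar for 2 other lists is the tallest, with 2982 peaks, and the line for gene starts is highest there at 68.4% and drops to 37.5% at 5 lists.

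Fold enrichment was highest, at 34.5, inside Cacng4, the gene of an AMPA receptor accessory protein (chromosome 11, 107783798 to 107784797). At that place the authors' callers gave 31.4 in the HDAC1-named list, 16.0 in the CHD4-named list, 40.1 in MBD3, 46.6 in RBBP4 and 50.7 in RBBP7. A second peak within Cacng4 (107785009 to 107786501) had 22.7. The activin receptor gene Acvr1b held a peak of 21.6 (chromosome 15, 101196044 to 101196864), and a peak of 20.2 lay 76996 bp from the interferon gamma receptor gene Ifngr1 (chromosome 10, 19514044 to 19515321). All 4 of these places were in all 5 other lists. A peak of 19.7 lay 33874 bp from Foxk1, a forkhead factor gene (chromosome 5, 142367274 to 142368266), and was absent from the CHD4-named list. The peak of 17.6 nearest to Nid2, a basement membrane gene, was shared with the HDAC1-named list and no other (chromosome 14, 19701527 to 19702054). Others of the 20 strongest away from gene starts lay within Capn2 (18.2), Mocos (16.5 and 15.1), Alpk1, Gfra1, Adk and Nrxn3, a gene of synaptic adhesion, or 421328 bp from the zinc finger homeobox gene Zfhx4.

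At gene starts the strongest peak was that of Atp5e, printed above (chromosome 2, 174463127 to 174464682), with 16.2. Fbxl19, whose protein has a domain that binds CpG-rich DNA, had 16.0 (chromosome 7, 127745458 to 127746241) and Dedd 15.4. Pspc1, a paraspeckle gene, had 14.3 and Pcbp2 13.2, with the POU factor gene Pou2f1 between them. Bub1, which encodes a kinase of the spindle checkpoint, and Rnaseh2b, a subunit gene of RNase H2, also had 13.2, Mospd3 and Synj1 13.1. Among these 10, the Bub1 peak had the fewest partners, the HDAC1-named list and RBBP4.

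The widest peak, 5578 bp, lay 524 bp from the start of Helt, a bHLH factor gene (chromosome 8, 46291541 to 46297118), with a fold enrichment of 11.5. Zfp608, a zinc finger gene, followed with a start peak of 4376 bp. Peaks of 4098 and 3517 bp lay 43540 and 53689 bp from Ccny, a cyclin gene, and another 32090 bp from Gsx1, a homeobox gene of ventricular zone progenitors (4058 bp, fold enrichment 8.49). The transcription factor genes Lhx5, at 87664 bp, Ptf1a, at 5547 bp, and Neurog3, at 2759 bp, were nearest to peaks 3869, 3841 and 3562 bp wide. The ephrin receptor gene Epha4 had a start peak of 3487 bp, and the transcriptional coregulator gene Mn1 one of 3345 bp.

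Peaks were unevenly spread over genes. Zfp608 was the nearest gene of 44 peaks, of which 7 lay in the gene and 13 were in all 5 other lists. The neuronal transcription factor gene Mef2c was nearest to 26 peaks, Auts2 to 24 (22 of them inside the gene), Gse1, whose protein is found with the CoREST deacetylase complex, to 24, and the POU factor gene Pou3f3 to 24. Tmem161b, a gene of a membrane protein, was nearest to 22 peaks, 1 of them inside it, and the deubiquitinase gene Usp25 to 17. The transcription factor genes Nfia, Sox2 and Zeb2 each had 15. Meis2, Tox3, Tle1, Tle3 and Tle4, the last 3 encoding corepressors that recruit deacetylases, had 14 each. Peaks nearest to a gene need not act on it. Grouping peaks less than 5 kb apart, a distance chosen after the values were seen, gave 8473 groups, of which 6474 were single peaks and 67 held at least 5. The fullest groups had 11 peaks each, at Pou3f3 over 17032 bp (chromosome 1, 42682914 to 42699945) and 74756 bp from Mef2c over 22519 bp (chromosome 13, 83728361 to 83750879). Groups of 8 lay at Zeb2, Pcdh17, Auts2 and Pou3f2.

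At the level of genes, 6040 of 20953 protein-coding genes (28.8%) had an HDAC2-named summit at a start. This is the background for every count of genes with an HDAC2-named peak that follows. It depends on the threshold, with 1894 genes (9.04%) for peaks with −log10 q of 10 or more and 3222 (15.4%) for the 5000 peaks of lowest q. The 2 deacetylase genes themselves were among them. Hdac1 had a peak of 5.27 at 86 bp from its start and Hdac2 one of 5.71 at 918 bp. Of 15 genes of NuRD subunits, 9 (60.0%, 35.7 to 80.2) had a start peak, among them the methyl-CpG-binding domain genes Mbd2 (7.21) and Mbd3 (5.77), the histone chaperone gene Rbbp4 (6.16), the scaffold gene Gatad2a (5.71) and the remodeller genes Chd3 (5.61) and Chd5 (4.72). Chd4, Gatad2b, Mta1, Mta2, Mta3 and Rbbp7 had none. Of these, Chd4 had a start peak in all 5 other lists. The wide intervals of these short lists mean that counts of a few genes more or less would not be told apart. The gene lists and their members were also chosen with earlier results of these data known, so the intervals only describe them. Among the other ChIP lists, RBBP4 had 14 of the 15 NuRD genes, the HDAC1-named list 13 and MBD3 11. RBBP7 and the CHD4-named list had 5 each. Each of these lists has its own background. Over all genes the shares were 48.1% for RBBP4, 45.9% for the HDAC1-named list and 24.4% for MBD3. They were 12.7% for RBBP7 and 10.3% for the CHD4-named list.

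Genes of other class I deacetylase complexes had a start peak in 20 of 31 cases (64.5%, 46.9 to 78.9). They included Hdac3 (8.68) and Ncor1 (7.73) of the NCoR complex, Rcor3 (8.12) and Rest (7.0) of the REST and CoREST group, and Ing1 (8.11), Sap30 (7.95) and Sin3a (6.16) of the SIN3 complex. Sin3b, Kdm1a and Hdac8 had none. On the opposing side of the balance of acetylation, 9 of 14 genes of acetyltransferases and bromodomain readers had one, with Kat2b at 6.72 and Ep300 at 4.10. The HDAC1-named list had 29 of the 31 deacetylase complex genes and RBBP4 25. MBD3 had 17 of those 31, and RBBP7 and the CHD4-named list 10 each.

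Genes of the GABAergic lineage had many peaks. Of 38, 27 (71.1%, 55.2 to 83.0) had a start peak, and 191 peaks had one of the 38 as nearest gene, a median of 3.5 per gene. At least 1 peak had the gene as nearest for 32 of the 38, against 6761 of all 20953 genes. Sox11 had the strongest start peak of the list at 12.3, followed by the forkhead factor gene Foxp1 (8.12), Maf and Zeb2 (both 7.56), which act in cortical interneurons, and Sox6 (7.21). Lhx6, needed for interneurons of the medial ganglionic eminence, had 5.32, Isl1, a factor of striatal projection neurons, 6.56, and Gad1 and Slc32a1, which make and load GABA, 5.04 and 4.88. Genes without a listed start peak included Dlx6, Gad2, Ikzf1, Lhx8, Nkx2-1, Npas1, Nr2f1, Nr2f2, Prox1 and Sp8, several of which are typical of these cells too. By list, 33 of the 38 had a start peak in RBBP4, 25 in MBD3, 23 in the HDAC1-named list, 20 in RBBP7 and 7 in the CHD4-named list. Over all genes those lists were at 48.1%, 24.4%, 45.9%, 12.7% and 10.3%.

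Within the Dlx family, Dlx2 had a start peak of 5.71 at 100 bp, Dlx5 one of 5.47 and Dlx1 one of 4.20. Dlx6 had none at its start but was nearest to 3 peaks, the strongest at 7.32. Dlx3 and Dlx4, which are known from skin and placenta rather than forebrain, had none.

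Ventricular zone progenitor genes had a start peak in 14 of 22 cases (63.6%, 43.0 to 80.3), among them the Notch targets Hes5 and Hes1 at 6.48 and 5.96, Id4 at 5.78 and Olig2 at 5.71. Gsx1, Gsx2, Pax6, Otx2, Emx2, Nkx6-2, Sox3 and Tcf7l2 had none. Of 18 Notch pathway genes, 13 (72.2%, 49.1 to 87.5) had one. These included the ligand genes Jag1 (9.24) and Dll1 (6.05), the receptor gene Notch2 (6.14), the coactivator gene Maml1 (6.44) and, highest, Hes6 (10.8), a HES family gene of differentiating neurons. Dll3, Notch3, Hey2, Heyl and Mfng had none. Hes1 and Hes5 belong to both lists. RBBP4 had 20 of the 22 progenitor genes, the HDAC1-named list 14, RBBP7 12, MBD3 6 and the CHD4-named list 2. For the 18 Notch pathway genes the counts were 16 in RBBP4, 14 in the HDAC1-named list and 12 in MBD3. RBBP7 had 8 of the 18 and the CHD4-named list 7.

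Cell cycle genes had a start peak in 17 of 23 cases (73.9%, 53.5 to 87.5). Mcm3, a subunit gene of the replicative helicase, had 9.62, the proliferation marker Mki67 9.58, Cdkn1b, an inhibitor of cyclin-dependent kinases, 7.90, Ccne1 7.66 and Cdk1 7.20. Ccna2, Ccnd1, Cdkn2c, Mcm6, Pcna and Top2a had none, although they too serve proliferating cells. The HDAC1-named list and RBBP4 each had 19 of these 23 genes, MBD3 7, RBBP7 4 and the CHD4-named list 3.

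Receptors of axon guidance and migration gave the highest share of the gene lists, 20 of 24 genes (83.3%, 64.1 to 93.3). The HDAC1-named list and RBBP4 each had 21 of these 24 genes, MBD3 19, RBBP7 13 and the CHD4-named list 6. In the HDAC2-named list, start peaks at these receptor genes ran as follows. Epha4 stood highest at 9.58, followed by the GDNF receptor gene Ret (8.12), the netrin receptor genes Unc5d (7.95) and Unc5c (7.53) and the semaphorin receptor gene Plxna2 (7.95). The netrin receptor gene Dcc had 3.61. Cxcr4, the chemokine receptor of migrating interneurons, had 5.27, while Ackr3, Nrp2, Robo3 and Unc5b had none. Of 14 immediate early genes 8 had a start peak, with Jun at 8.12 and Egr1 at 7.45, and of 12 Hedgehog pathway genes 7, with the receptor gene Ptch1 at 6.50 and the ligand gene Shh at 5.04. Of 7 TLE corepressor genes 2 had one, Tle1 (8.31) and Tle4 (7.11), and of 10 housekeeping genes 4, with Ppia at 6.71 and Gapdh at 5.24.

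Markers of cells outside the GABAergic lineage had start peaks at shares near or below the background. Cortical glutamatergic genes had 5 of 16 (31.3%, 14.2 to 55.6), namely Lhx2 (7.59), Neurog1 (5.22), Neurod1 (4.97), Cux1 (4.88) and Bhlhe22 (4.72). The RBBP7 list had 13 of these 16. Oligodendrocyte and astrocyte genes had 3 of 13, namely Gja1 (6.48), Olig1 (6.23) and Mbp (5.24), and endothelial and mural genes had 1 of 11, Kdr (5.60). No start peak was listed at the 8 microglial, 8 red blood cell or 8 mesenchymal genes, where a count of 0 allows a share of up to 37.5% in each. In a list of peaks from unsorted tissue, a small number of cells of a type cannot be told apart from a low level of the protein in them. The share of start windows with a peak also varied with CpG content, and its part in these counts was not tested.

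Some families were large enough to count more finely. Olfactory receptor genes, which are silent outside the nose for the most part, had a start peak in 0 of 1108 cases, which allows up to 0.271%. Hox genes, which pattern the hindbrain and trunk and are silent in the forebrain, had one in 0 of 39, which allows up to 7.69%. The RBBP4 list had 32 of those 39 Hox genes (82.1%), RBBP7 had 14, MBD3 had 1 and the HDAC1-named and CHD4-named lists had 0. The 24 Hox windows in the promoter table had a median of 14.5 CpG, from 4 to 45, close to the 14 of all windows. Genes of cytosolic ribosomal proteins and their named paralogs had a start peak in 24 of 83 cases (28.9%, 20.3 to 39.4), which is the background share, although these genes are highly active in every growing cell. Rps10 (7.84) and Rpl4 (7.56) were the highest. In the HDAC1-named list 74 of the 83 (89.2%) had one, in RBBP4 36, in MBD3 11 and in the CHD4-named and RBBP7 lists 7 each. The HDAC1-named and HDAC2-named lists, which share a prefix, thus both lacked the Hox genes and differed at the ribosomal protein genes. Replication-dependent histone genes had 10 of 63. In the HDAC1-named list 22 of the 63 had a start peak, in RBBP4 21, in RBBP7 7 and in MBD3 and the CHD4-named list 0. Near-identical copies of histone genes can make reads hard to place, and the part of this in the counts was not tested.

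**Figure D5:**
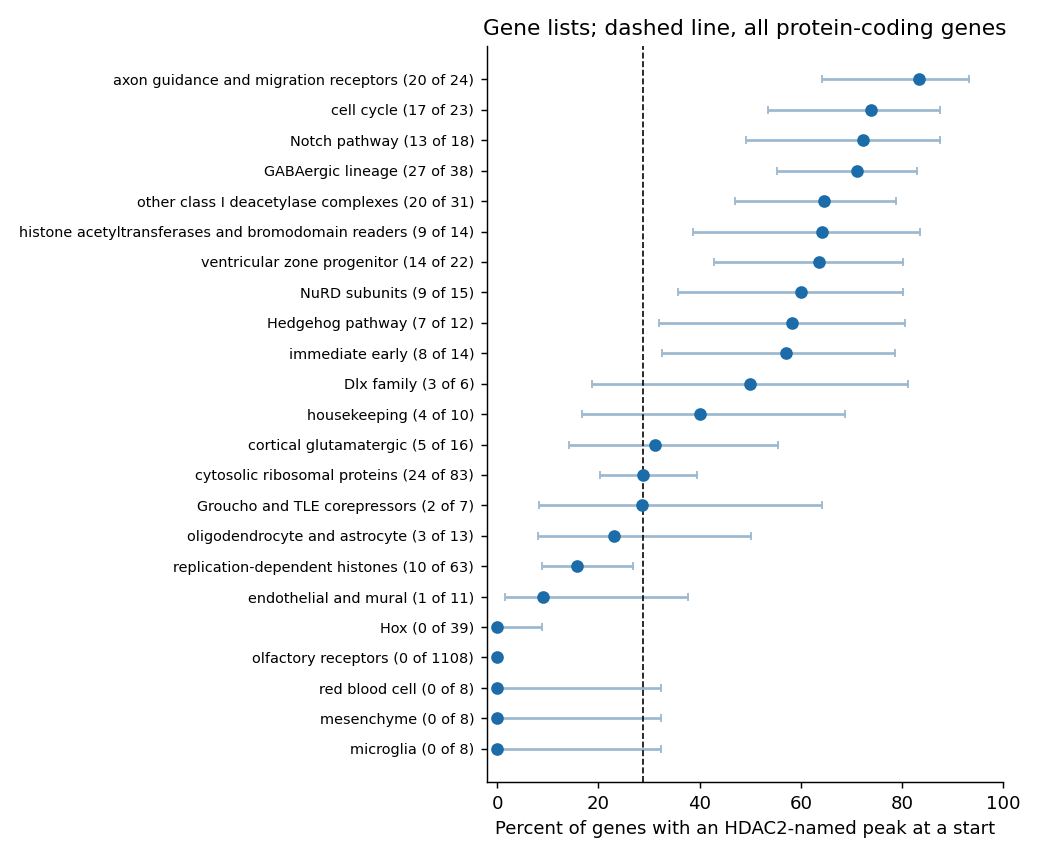
Each point gives the percent of the genes of a list with an HDAC2-named summit within 1 kb of a start (x axis), with its 95% Wilson interval and the number of genes, and the dashed line marks the 28.8% of all protein-coding genes. Whole intervals lie right of the line for axon guidance receptors (83.3%), cell cycle genes (73.9%), Notch pathway genes (72.2%) and GABAergic lineage genes (71.1%). The same holds for NuRD subunit, other class I deacetylase complex, acetyltransferase and bromodomain reader, ventricular zone progenitor, immediate early and Hedgehog pathway genes. Hox and olfactory receptor genes, at 0, and replication-dependent histone genes (15.9%) lie left of it with their whole intervals. Lists and members were chosen with earlier results of these data known.

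Accessibility lists gave the regions that differed between WT and Dlx1/2 KO embryos at E12.5, earlier than the ChIP samples. Of 727 regions more accessible in KO in the FTneg fraction, 163 (22.4%, 19.5 to 25.6) overlapped an HDAC2-named peak, and 5 of the 169 peaks there lay at a gene start (2.96%), against 59.1% of all HDAC2-named peaks. Few of these regions were at gene starts in the first place, 26 of the 727. Every other ChIP list was at more of the 727 regions than the 163 of the HDAC2-named list. RBBP4 was at 480, RBBP7 at 315, the HDAC1-named list at 285 and MBD3 at 263. The CHD4-named list, although the shortest, was at 188. Of the 169 peaks, 104 (61.5%) were in all 5 other lists, against 12.6% of the whole list, while their median fold enrichment of 5.22 equalled that of the whole list. The whole list differs in place: 481 of its 1986 peaks between genes were in all 5. Within genes it was 406 of 2630, and at gene starts 532 of 6672. The part of place in the difference was not tested. The strongest of the 169 were the Cacng4 peak of 34.5 and the peak of 20.2 near Ifngr1. Others lay 451157 bp from Pdcd1 (10.4), 19045 bp from Acadsb (10.4), within the ephrin receptor gene Epha3 (9.86) and at the start of Zswim6 (8.85). When peaks were limited to −log10 q of 10 or more, 7.98% of the 727 regions had one.

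Regions listed as more accessible in WT were fewer. In the FTpos fraction 18 of 33 (54.5%, 38.0 to 70.2) overlapped an HDAC2-named peak, and in the FTneg fraction 11 of 53 (20.8%, 12 to 33.5). The RBBP4 list was at 29 of the 33 and 38 of the 53. Of the 20 HDAC2-named peaks in the FTpos regions 2 were in all 5 other lists, and of the 12 in the FTneg regions none was, unlike the peaks in the regions higher in KO. Their median fold enrichments were 6.50 and 6.81. These peaks included 2 between Dlx1 and Dlx2 on chromosome 2, one of 9.10 (71537855 to 71538802) and one of 7.34 (71535902 to 71536556). Metap1d, the neighbouring gene, had a peak of 11.4 (71516751 to 71518109) in a region of the FTpos list alone. On chromosome 6 a peak of 7.32 (6869393 to 6869995) lay between Dlx6 and Dlx5, in regions of both fractions. A peak of 6.96 lay 200292 bp from Nfia, in a region of the FTneg list. The Dlx1 and Dlx2 genes are the ones altered in the KO, and 5 regions of each list lay over their locus. In FTneg their areas were 3264 to 21511, against at most 1932 elsewhere. In FTpos the areas at the locus were 2239 to 17969, and a region elsewhere reached 8334. That region (chromosome 1, 24612579 to 24612881) lies within a region listed as more accessible in KO in FTpos, of area 17741. A place near Esp38 on chromosome 17 is likewise in both FTpos lists. Both places stay in the counts of FTpos regions, and neither had an HDAC2-named peak. Missing DNA and lower accessibility cannot be told apart at the Dlx1 and Dlx2 locus. Without that locus, a subset chosen after the values were seen, 15 of 28 FTpos regions (53.6%, 35.8 to 70.5) and 9 of 48 FTneg regions (18.8%, 10.2 to 31.9) had an HDAC2-named peak. Of the 12 regions more accessible in KO in the FTpos fraction, 1 had a peak, of 4.22, at 16060 bp from Zfp324. None of these differences between lists of regions was tested, because each list combines its embryos.

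The 243 HDAC2-named peaks found in no other list were weak, at most 7.28. The strongest at a gene start was that of Sec24c, a gene of vesicle coat assembly (7.0), and a peak of 6.42 lay 1501 bp from the proneural gene Neurod1.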

How the data were processed

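ChIP libraries from E13.5 tissue were cross-linked with 5 mM DSG and 1% paraformaldehyde and sonicated for 10 min, and fragments of 180 to 400 bp were selected, per the labels' protocols. The submitters' processing notes name BWA, SAMtools 1.10, MACS2 2.2.7.1, Genrich, deepTools and the mm10 build. Settings are not given in the sources used here. The 6 deposited narrowPeak lists hold, per peak, the authors' score, the ratio of ChIP to input (fold enrichment), −log10 p, −log10 q and a summit position. Peaks were called by the authors on 1 library against input. In the HDAC2-named list the peak numbers run to 11451 and 163 are missing, and no rows overlap. The deposited accessibility lists hold an area score per region from combined embryos, and every area is at least 500. Depth is unknown, so the precision of a fold enrichment could not be given.

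Peaks were assigned to RefSeq genes of GRCm38.p6 with a curated protein-coding transcript on chromosomes 1 to 19 and X. Of 20953 genes, 16783 had a listed start. Overlap means at least 1 bp. A count of 0 was given an upper limit of 3 counts. Peaks and genes were named as the 20 of highest fold enrichment, the 10 of each place, width and region class, the 10 genes with most peaks, and the members of the gene lists. Members and lists were chosen with earlier results of these data known. With 1 library per target no test between conditions could be made, and no p-value was computed. Overlap and distance steps were tested on simulated intervals. Python 3.11.15, numpy 2.4.6, pandas 2.3.3, SciPy 1.17.1 and matplotlib 3.10.9 were used. Alternatives changed the peak threshold, the overlap rule, the window around starts, the gene set and the lists compared. Values of a few genes are not reported here.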

Additional observations from a re-analysis of the deposited data

How the results depend on the processing

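The share of HDAC2-named peaks at gene starts, 59.1%, was 62.5% for peaks with −log10 q of 10 or more, 62.3% for the 5000 of lowest q, 46.2% within 500 bp, 67.0% within 2000 bp and 62.4% counting any base of the peak. Alternatives chosen after seeing the data gave 51.8% with either end of every gene and 49.0% with genes of a listed start alone. The share in at least 1 other list, 97.8%, was 98.4% and 85.2% under those thresholds on q, 96.1% with 50% of the peak covered, 83.0% with summits within 250 bp and 86.9% without the HDAC1-named list of the same prefix. The share in all 5, 12.6%, was 7.41%, 5.3%, 7.24% and 6.06% under the same first 4 rules and 13.4% without that list. It was 23.2% without the CHD4-named list, whose attached sample is paired with the same input in the labels. With peaks less than 1 kb apart merged (chosen after seeing the data) it was 15.6%. Genes with a start peak, 6040, were 1894 and 3222 under the thresholds on q. Regions higher in KO in the FTneg fraction with a peak, 22.4%, were 7.98% and 10.5% under them, 19.3% with 50% covered and 28.9% for regions of area at least 1000. The thresholds on q leave fewer peaks by construction, and the cause of the other shifts was not tested. Adding genes without a curated transcript, tried for 2 of the results, gave 59.2% at gene starts and 6085 genes of 21631 (28.1%). No replicate could be left out. No paired analysis was possible because each ChIP target has 1 library and each accessibility list combines its embryos. Unknown depth limits every comparison of list lengths.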

Other observations

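Of 1005 miRNA hairpins in the RefSeq table, 22 overlapped an HDAC2-named peak. The strongest of these peaks covered Mir8112 (7.95) and Mir5130 (7.36), both at the start of a protein-coding gene and both in all 5 other lists. Mir137, known from neuronal differentiation, lay under a peak of 4.97 shared with 2 other lists, and Mir92b under one of 3.77 shared with 1.

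By chromosome, the share of HDAC2-named peaks at gene starts ran from 38.2% on chromosome 18 (172 of 450) and 45.7% on X (32 of 70) to 67.7% on chromosome 11 (521 of 770). No gene on chromosome 18 had a listed start in the table used, so either end of each gene was taken there, and the part of this in the low share was not tested. Chromosome X held 0.620% of all peaks and chromosome 2 held 8.20%, the highest share of any chromosome. These shares were not set against the length or gene number of each chromosome.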
